A study of Homo sapiens with 15 samples.

Results

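The 10 genes described here, BCL2, BCL2L1, MCL1, BAX, BAK1, BCL2L11, BBC3, PMAIP1, BID and BIK, encode proteins of the BCL2 family, which control whether the outer membrane of the mitochondrion stays intact. They were taken as a list of symbols, and all 10 were matched by gene identifier among the 58381 genes counted in each library. BCL2, BCL-XL (from BCL2L1) and MCL1 hold cell death back by binding their pro-apoptotic relatives. BAX and BAK (from BAK1) are the effectors that perforate the membrane and release cytochrome c. BIM (from BCL2L11), PUMA (from BBC3), NOXA (from PMAIP1), BID and BIK are BH3-only proteins, which sense stress or loss of survival signals and either engage the effectors or occupy the anti-apoptotic proteins. In prostate cancer this balance is of interest because androgen withdrawal kills part of the cells, and survivors can lean on an anti-apoptotic member.

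VCaP is an established human prostate cancer cell line that expresses the androgen receptor and the TMPRSS2-ERG fusion. RNA was sequenced from 5 sublines, 3 libraries each and 15 in all. VCaP-T had been kept for 7 months in RPMI 1640 with charcoal-stripped serum (DCC-FBS) and 10 nM testosterone. VCaP-CT was raised from VCaP-T over 10 further months at low testosterone, given as 0.1 nM in the treatment protocol, whereas the treatment label of the samples writes 10 nM for this period. Further sublines descend from VCaP-CT, so the long testosterone period and the low-testosterone period are part of their history too: VCaP-CT-ER (VCaP-CT-ET in the protocol) regrew under 10 µM enzalutamide, VCaP-CT-BR under bicalutamide, and VCaP-CT-BR-ER under enzalutamide after bicalutamide. For VCaP-CT-BR the label speaks of enzalutamide after bicalutamide as well. Enzalutamide and bicalutamide are antagonists of the androgen receptor. No subline was derived more than once as far as the sources say, so treatment, time in culture and chance events of a single derivation cannot be told apart, and p-values measure the spread between libraries of that derivation.

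Each library held between 33665716 and 46935279 counted fragments, and a floor of 3 counts corresponds to a share of 8.91e-08 or less, an allowance for counting error alone. Libraries of the same subline had a correlation of log2 CPM of at least 0.9956 and libraries of different sublines of at most 0.9837, across genes, which are not independent replicates. All 10 markers fixed for the line were present, with FOLH1 lowest at 1.19 TPM, and their summed level lay between 11129 and 11359 TPM in VCaP-T and between 3221 and 3322 TPM for VCaP-CT-BR-ER. Of 8 markers of other cell types, PTPRC, COL3A1, TP63 and CHGA did not exceed 0.1 TPM in any library and KRT5 reached at most 0.1003 TPM. The remaining markers reached more, each highest in VCaP-T: VWF 3.46 and PECAM1 1.06 TPM (endothelium), and COL1A1 2.01 TPM (fibroblasts). The sum of all 8 went from 5.29 to 6.57 TPM in VCaP-T down to 0.171 to 0.247 TPM for VCaP-CT-ER. Whether changes in these markers take part in the values below was not tested. In bulk RNA, fewer cells with a transcript and less transcript per cell cannot be told apart.

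All 10 members passed the filter on low counts, with the lowest value 47 fragments, for BCL2 in VCaP-T. Levels are given as TPM, the fragments per base of exon scaled to the same total in each library, which allows comparison between genes of different length. Fold changes come from edgeR after TMM scaling and can differ slightly from ratios of TPM. A member is said to have risen or fallen only where the quasi-likelihood test of edgeR gave a Benjamini-Hochberg adjusted p under 0.05 over all 19621 genes tested. With a biological coefficient of variation of 0.061 between libraries, small differences passed: 65.3% of all genes did so between VCaP-CT and VCaP-T.

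The data show 3 main movements. PMAIP1 and BBC3, whose products NOXA and PUMA are stress-induced killers, both fell from VCaP-T to VCaP-CT, by 2.22-fold and 2.69-fold. PMAIP1 rose again in each antagonist-resistant subline, 3.26-fold over VCaP-CT in VCaP-CT-ER, whereas BBC3 did not exceed its VCaP-CT level by the test in any of them. BAK1 rose 2.16-fold in VCaP-CT while BAX fell 1.19-fold, and MCL1 climbed from 93.6 ± 3.85 TPM for VCaP-T to 151 ± 6.65 TPM for VCaP-CT-BR-ER (SD, n = 3).

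Promoter sequences of RefSeq (GRCh38.p14) were found for 8 of the 10 members, all but MCL1 and BIK. BAX, BBC3 and PMAIP1 are shown, the first pair because their levels moved together across the libraries, and PMAIP1 because it fell into VCaP-CT and rose again in each antagonist-resistant subline. Each line holds the 250 bases before the start of the transcript, in the direction of transcription, with capitals for the letters GGGCGG (the GC box), CACGTG (an E-box) and TGACGT (the core of a cAMP response element) on either strand.
BAX, chr19:48954625-48954874, plus strand: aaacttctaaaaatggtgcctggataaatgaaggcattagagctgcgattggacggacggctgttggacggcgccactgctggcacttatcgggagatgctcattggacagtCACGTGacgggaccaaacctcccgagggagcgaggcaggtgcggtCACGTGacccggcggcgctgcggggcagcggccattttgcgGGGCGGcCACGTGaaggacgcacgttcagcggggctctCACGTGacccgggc
BBC3, chr19:47232668-47232917, minus strand: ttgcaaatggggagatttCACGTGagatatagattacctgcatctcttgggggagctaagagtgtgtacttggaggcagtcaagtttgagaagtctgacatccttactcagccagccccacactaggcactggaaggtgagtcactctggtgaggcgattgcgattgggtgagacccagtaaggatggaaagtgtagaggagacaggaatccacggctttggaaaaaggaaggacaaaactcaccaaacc
PMAIP1, chr18:59899746-59899995, plus strand: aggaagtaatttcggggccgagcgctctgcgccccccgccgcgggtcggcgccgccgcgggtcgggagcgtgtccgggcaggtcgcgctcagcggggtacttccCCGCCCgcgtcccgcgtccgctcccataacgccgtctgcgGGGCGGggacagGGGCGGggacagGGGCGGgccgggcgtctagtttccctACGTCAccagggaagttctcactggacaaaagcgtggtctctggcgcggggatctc
The BAX window held CACGTG at 4 positions, the nearest 14 to 9 bases before the start. Among 35116 promoter windows of this length, 6.34% held CACGTG at all and 5 held it at 4 or more positions. BBC3 held it at 1 position, 232 to 227 bases before its start. The PMAIP1 window held GGGCGG at 4 positions, a motif found in 42.6% of the windows, and 1 TGACGT, found in 7.1%, 56 to 51 bases before the start. BCL2L11 held GGGCGG at 3 positions and 1 copy of GTAAACA, a FOXO motif found in 2.98% of the windows. BAK1 held GGGCGG at 2 positions. Also searched were CCAAT (in 32.0% of the windows and in those of BCL2L11, BAX, BAK1 and BBC3), and TGACGTCA, which contains TGACGT, TGATGNAAT and the full androgen response element, with no match in the members. CACGTG reads the same on both strands and each position was counted once. Such matches describe the letters and do not show binding. The annotation used for counting starts BAX at 48954815, BBC3 at 47232766 and PMAIP1 at 59899948, each inside the window shown. The same annotation starts BCL2L11 at 111119378 and BCL2 at 63320128 (minus strand), upstream of their windows, which lie within these genes as counted.

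Among the anti-apoptotic members, BCL2 was the scarcest and MCL1 the most abundant in every subline, as counted. The level of BCL2L1 can be understated by an exon overlap given below, so whether it lay below MCL1 in each subline is not settled. BCL2 (chromosome 18, 63123346 to 63320128, minus strand) stood at 0.289, 0.287 and 0.451 TPM in the VCaP-T libraries and at 0.909, 0.763 and 0.793 TPM in VCaP-CT. It measured 0.975, 1.09 and 1.13 TPM in VCaP-CT-ER, 1.41, 1.20 and 1.47 TPM for VCaP-CT-BR, and 1.43, 1.17 and 1.19 TPM for VCaP-CT-BR-ER. All VCaP-T libraries lay under all others, and no VCaP-CT library reached the lowest library of a resistant subline. BCL2 rose from VCaP-T to VCaP-CT (log2 fold change 1.34 ± 0.16 (SE), edgeR adjusted p = 1.87e-07) and from VCaP-CT to VCaP-CT-BR (0.70 ± 0.13, edgeR adjusted p = 0.000113). The step from VCaP-CT to VCaP-CT-ER passed narrowly (0.31 ± 0.13, edgeR adjusted p = 0.0485) and was lost without VCaP-CT replicate 2 or 3 or VCaP-CT-ER replicate 2 or 3, where adjusted p lay between 0.0811 and 0.148, and with 75th percentile scaling (0.0595). BCL2 had only 47 to 273 fragments per library, so its error is wide.

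MCL1 (chromosome 1, 150574551 to 150579738, minus strand), a short-lived protein that captures BIM and NOXA among others, was read at 89.3, 96.7 and 94.8 TPM in VCaP-T and at 115, 104.9 and 104.5 TPM for VCaP-CT. The resistant sublines measured 152, 143 and 154 TPM (VCaP-CT-ER), 145, 134 and 142 TPM (VCaP-CT-BR), and 155, 143 and 153 TPM (VCaP-CT-BR-ER). The VCaP-T, VCaP-CT and resistant libraries formed separate, non-overlapping ranges, and the 3 resistant sublines overlapped. MCL1 rose by 0.30 ± 0.05 on the log2 scale from VCaP-T to VCaP-CT (edgeR adjusted p = 2.7e-05). A further rise of 0.40 ± 0.05 led to VCaP-CT-ER (edgeR adjusted p = 6.98e-07) and one of 0.35 ± 0.05 to VCaP-CT-BR (edgeR adjusted p = 7.4e-06). Against VCaP-CT-BR, the excess in VCaP-CT-BR-ER of 0.11 ± 0.05 did not pass (edgeR adjusted p = 0.0927), and it passed without VCaP-CT-BR-ER replicate 2 (0.0391).

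BCL2L1 (chromosome 20, 31664452 to 31723989, minus strand) varied least: its library values ran from 70.9 to 76.2 TPM in VCaP-T, 64.0 to 72.9 for VCaP-CT, 65.4 to 66.9 for VCaP-CT-BR and 55.8 to 61.4 for VCaP-CT-BR-ER. VCaP-CT-ER averaged 76.2 ± 1.86 TPM (SD, n = 3). The VCaP-CT-BR-ER libraries lay under all the others. It fell by 0.33 ± 0.05 on the log2 scale against VCaP-CT-ER (edgeR adjusted p = 9.76e-06) and by 0.17 ± 0.05 against VCaP-CT-BR (edgeR adjusted p = 0.00732, and 0.0592 without VCaP-CT-BR-ER replicate 3). The difference between VCaP-CT and VCaP-T was 0.01 ± 0.05, with a sign that turned with DESeq2, with at least 10 counts required in every library and with single libraries left out. The ratio of MCL1 to BCL2L1 in TPM was 1.29 ± 0.06 in VCaP-T, 1.58 ± 0.12 for VCaP-CT, 1.97 ± 0.12 for VCaP-CT-ER, 2.12 ± 0.11 for VCaP-CT-BR and 2.58 ± 0.22 for VCaP-CT-BR-ER (SD, n = 3), given as a description. Exons of BCL2L1 share 42.97% of their bases with ABALON on the other strand, and counting ignored strand, so reads there were assigned to neither gene. TPM still divides by the full exonic length. The BCL2L1 level can thus be understated, and the ratio of MCL1 to BCL2L1 overstated. ABALON itself was assigned 29 to 91 fragments per library, which does not measure the reads lost in the overlap. Counts per gene add up all transcripts, so the long anti-apoptotic and the short pro-apoptotic forms of BCL2L1, and likewise the forms of MCL1 and BCL2L11, were not distinguished.

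**Figure D1:**
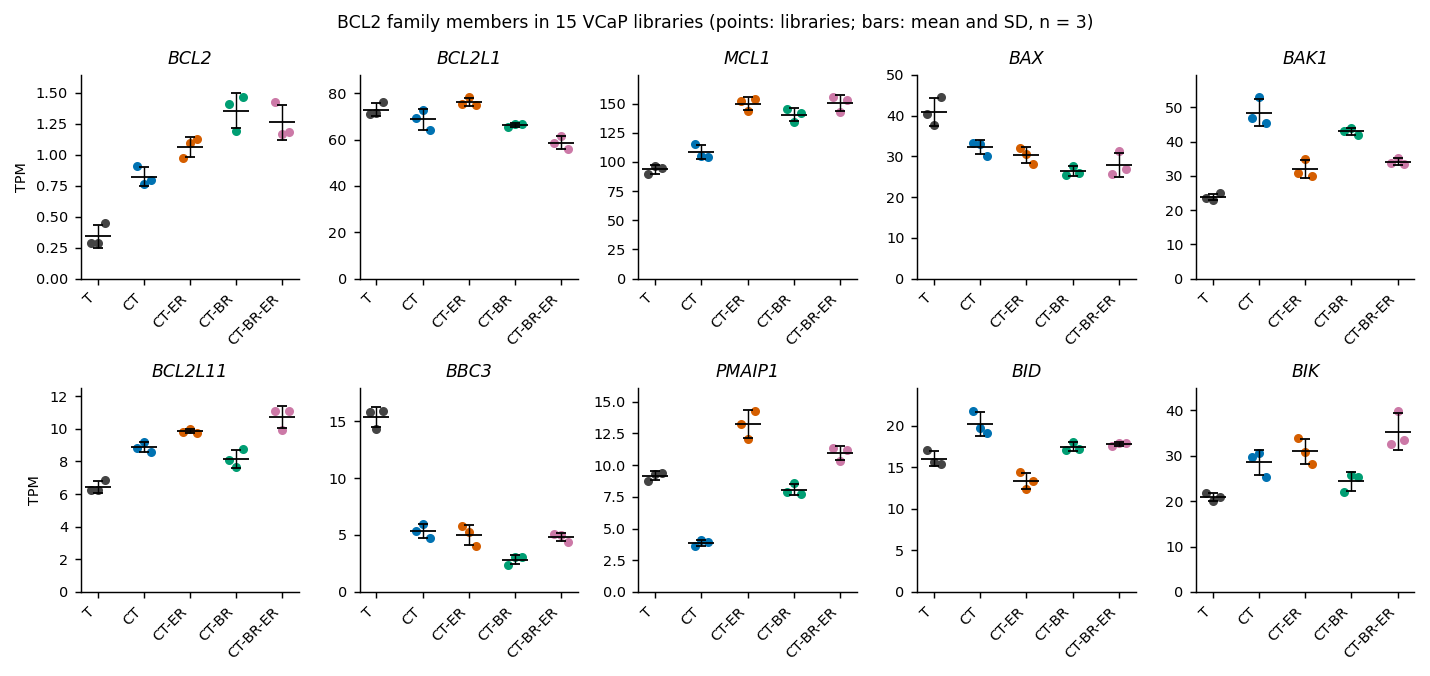
Level of each member in TPM (vertical axes, linear and starting at 0) in the 5 VCaP sublines, with a point for each library and bars for the mean and SD of 3 libraries. PMAIP1 is lowest and BAK1 highest in VCaP-CT, BBC3 is highest in VCaP-T and lowest in VCaP-CT-BR, and MCL1 is at 134 TPM or more in the 3 antagonist-resistant sublines.

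The 2 effectors moved in opposite directions on leaving high testosterone. BAK1 (chromosome 6, 33572547 to 33580293, minus strand), the effector that resides on mitochondria, was at 23.6, 23.0 and 24.9 TPM in VCaP-T and at 46.9, 52.9 and 45.4 TPM for VCaP-CT. It was at 30.8, 34.8 and 29.9 TPM in VCaP-CT-ER, 43.0, 44.0 and 42.0 TPM for VCaP-CT-BR, and 33.8, 35.2 and 33.4 TPM for VCaP-CT-BR-ER. VCaP-T libraries were lowest and VCaP-CT libraries highest, without overlap with any other subline, and both enzalutamide-resistant sublines lay between. BAK1 rose by 1.11 ± 0.07 on the log2 scale from VCaP-T to VCaP-CT (edgeR adjusted p = 4.1e-12). It then fell by 0.67 ± 0.06 to VCaP-CT-ER (edgeR adjusted p = 1.11e-08) and by 0.33 ± 0.06 from VCaP-CT-BR on to VCaP-CT-BR-ER (edgeR adjusted p = 0.000287). Its smaller fall from VCaP-CT to VCaP-CT-BR (log2 fold change −0.20 ± 0.06, edgeR adjusted p = 0.0131) did not pass without VCaP-CT replicate 2 (0.126) or VCaP-CT-BR replicate 3 (0.0638). The pseudogenes BAK1P1 and BAK1P2 could share reads with BAK1.

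BAX (chromosome 19, 48954815 to 48961798, plus strand), the effector that moves from cytosol to mitochondria, had library values of 37.8 to 44.5 TPM in VCaP-T, 30.2 to 33.2 for VCaP-CT, 28.2 to 32.1 for VCaP-CT-ER, 25.5 to 27.7 for VCaP-CT-BR and 25.7 to 31.2 for VCaP-CT-BR-ER. VCaP-T was above the other sublines without overlap, and the 4 later sublines overlapped in part. BAX fell from VCaP-T to VCaP-CT (log2 fold change −0.26 ± 0.07, edgeR adjusted p = 0.0051) and from VCaP-CT to VCaP-CT-BR (−0.32 ± 0.08, edgeR adjusted p = 0.00147). Neither enzalutamide step passed for BAX (−0.16 ± 0.07 and 0.09 ± 0.08, edgeR adjusted p = 0.0771 and 0.37). BAX was thus the more abundant effector in VCaP-T, with a ratio to BAK1 of 1.72 ± 0.07 (SD, n = 3), and the less abundant for VCaP-CT (0.666 ± 0.041) and VCaP-CT-BR (0.612 ± 0.019). The ratio was 0.953 ± 0.083 in VCaP-CT-ER and 0.817 ± 0.064 for VCaP-CT-BR-ER.

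Among the BH3-only members, PMAIP1 (chromosome 18, 59899948 to 59904306, plus strand) moved in opposite directions in successive steps. NOXA, its product, binds MCL1 above all and marks it for degradation. PMAIP1 was at 8.75, 9.28 and 9.42 TPM in VCaP-T, 3.61, 4.08 and 3.90 TPM for VCaP-CT, and 13.3, 12.1 and 14.3 TPM for VCaP-CT-ER. It was at 7.91, 8.59 and 7.71 TPM in VCaP-CT-BR and 11.3, 10.3 and 11.2 TPM for VCaP-CT-BR-ER. All VCaP-CT libraries were under, and all VCaP-CT-ER libraries over, every library of the other sublines. It fell from VCaP-T to VCaP-CT (log2 fold change −1.15 ± 0.10, edgeR adjusted p = 9.8e-10). The rise from VCaP-CT was 1.70 ± 0.09 to VCaP-CT-ER (edgeR adjusted p = 9.72e-13) and 1.03 ± 0.10 to VCaP-CT-BR (edgeR adjusted p = 1.55e-08), with a further 0.45 ± 0.08 to VCaP-CT-BR-ER (edgeR adjusted p = 0.000183). The VCaP-CT-BR level did not differ from that of VCaP-T beyond the test (−0.12 ± 0.09, edgeR adjusted p = 0.235). VCaP-CT-ER exceeded VCaP-T by 0.55 ± 0.08 (edgeR adjusted p = 3.54e-06) and VCaP-CT-BR-ER by 0.33 ± 0.08 (edgeR adjusted p = 0.00136).

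BBC3 (chromosome 19, 47220822 to 47232766, minus strand) encodes PUMA, which binds every anti-apoptotic member. Its levels were 15.8, 14.3 and 15.9 TPM in VCaP-T and 5.34, 5.98 and 4.77 TPM for VCaP-CT. They were 5.77, 5.22 and 4.03 TPM in VCaP-CT-ER, 2.40, 3.08 and 3.04 TPM for VCaP-CT-BR, and 5.05, 5.03 and 4.40 TPM for VCaP-CT-BR-ER. VCaP-T was above every other subline and VCaP-CT-BR below every other, without overlap, and VCaP-CT and both enzalutamide-resistant sublines overlapped. BBC3 fell by 1.43 ± 0.11 on the log2 scale from VCaP-T to VCaP-CT (edgeR adjusted p = 2.62e-10) and by 0.94 ± 0.13 from VCaP-CT to VCaP-CT-BR (edgeR adjusted p = 2.78e-06). From VCaP-CT-BR on to VCaP-CT-BR-ER it rose by 0.77 ± 0.13 (edgeR adjusted p = 4.69e-05). The step from VCaP-CT to VCaP-CT-ER did not pass (−0.16 ± 0.12, edgeR adjusted p = 0.248). VCaP-CT-BR was 5.17-fold lower than VCaP-T (log2 fold change −2.37 ± 0.12, edgeR adjusted p = 1.2e-13).

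BID (chromosome 22, 17734138 to 17774770, minus strand), which is cleaved by caspase-8 and links death receptors to mitochondria, was at 17.1, 15.7 and 15.4 TPM in VCaP-T, 21.9, 19.7 and 19.1 TPM for VCaP-CT, and 14.4, 12.4 and 13.4 TPM for VCaP-CT-ER. It was at 17.1, 18.1 and 17.3 TPM in VCaP-CT-BR and 17.6, 17.9 and 18.0 TPM for VCaP-CT-BR-ER. VCaP-CT held the highest and VCaP-CT-ER the lowest libraries, with no overlap with the rest. BID rose by 0.42 ± 0.07 on the log2 scale into VCaP-CT (edgeR adjusted p = 1.79e-05) and fell by 0.66 ± 0.07 from there to VCaP-CT-ER (edgeR adjusted p = 4.86e-08). The fall to VCaP-CT-BR was smaller (log2 fold change −0.24 ± 0.07, edgeR adjusted p = 0.00654) and did not pass without VCaP-CT replicate 1 (0.0774). VCaP-CT-BR-ER differed little from VCaP-CT-BR (0.03 ± 0.07, edgeR adjusted p = 0.728).

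BCL2L11 (chromosome 2, 111119378 to 111168447, plus strand), which encodes BIM, a strong activator of BAX and BAK, ranged over 6.22 to 6.88 TPM in VCaP-T and over 8.59 to 9.21 TPM for VCaP-CT. The ranges were 9.75 to 10.02 TPM in VCaP-CT-ER, 7.65 to 8.75 TPM for VCaP-CT-BR and 9.94 to 11.1 TPM for VCaP-CT-BR-ER. VCaP-T was lowest without overlap. Exons of BCL2L11 share 10.92% of their bases with MIR4435-2HG on the other strand, so its level can be understated. BCL2L11 rose into VCaP-CT (log2 fold change 0.55 ± 0.06, edgeR adjusted p = 1.54e-07) and from VCaP-CT-BR on to VCaP-CT-BR-ER (0.40 ± 0.06, edgeR adjusted p = 2e-05). Its excess in VCaP-CT-BR-ER over VCaP-CT-ER (0.17 ± 0.06, edgeR adjusted p = 0.0295) was lost without any single one of VCaP-CT-ER replicates 1 to 3 or VCaP-CT-BR-ER replicates 1 and 3 (adjusted p 0.0584 to 0.168) and with DESeq2 (0.0516), 75th percentile scaling (0.0573) or no filter (0.15).

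BIK (chromosome 22, 43110748 to 43129712, plus strand), a BH3-only protein of the endoplasmic reticulum, ran from 20.0 to 21.9 TPM in VCaP-T, 25.4 to 30.5 for VCaP-CT, 28.2 to 33.8 for VCaP-CT-ER, 21.9 to 25.8 for VCaP-CT-BR and 32.5 to 40.0 for VCaP-CT-BR-ER. It rose into VCaP-CT (log2 fold change 0.54 ± 0.10, edgeR adjusted p = 8.93e-05) and from VCaP-CT-BR on to VCaP-CT-BR-ER (0.54 ± 0.10, edgeR adjusted p = 0.000111). The fall from VCaP-CT to VCaP-CT-BR (−0.26 ± 0.10, edgeR adjusted p = 0.0357) rested on overlapping libraries. It did not pass without VCaP-CT replicate 1 or 2 or VCaP-CT-BR replicate 1 or 3 (adjusted p 0.0539 to 0.15), or with only the compared sublines (0.053).

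**Figure D2:**
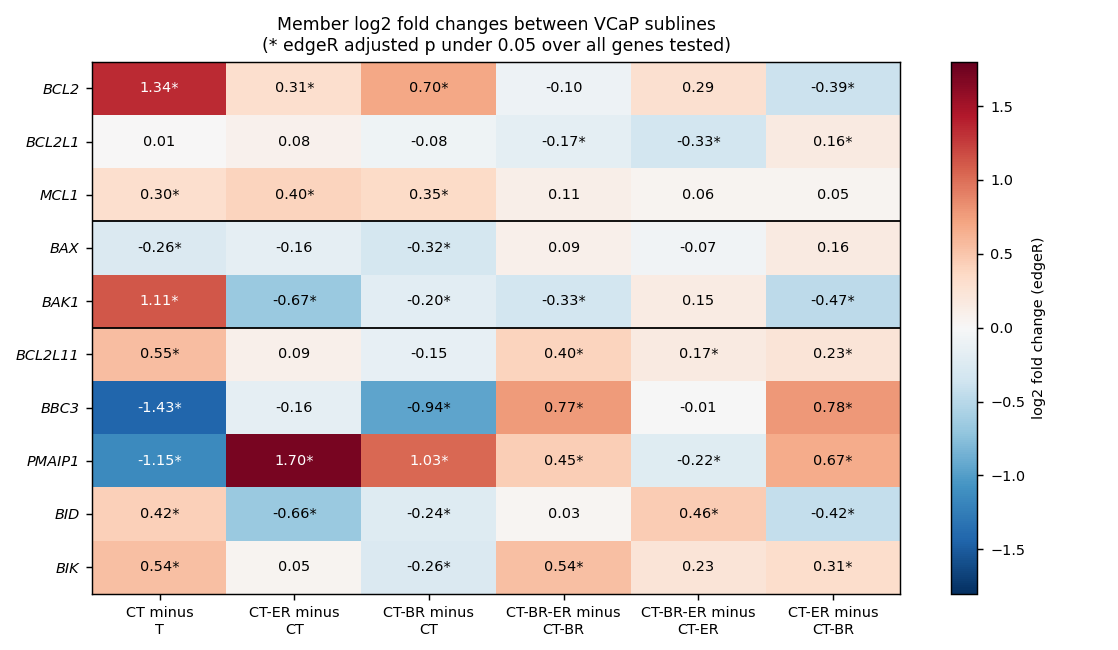
The edgeR log2 fold change of each member (rows, ordered as anti-apoptotic, effector and BH3-only) in 6 comparisons of sublines (columns), with red for higher and blue for lower in the subline named first and a star for an adjusted p under 0.05. Values range from −1.43 for BBC3 in VCaP-CT minus VCaP-T to 1.70 for PMAIP1 when VCaP-CT was taken from VCaP-CT-ER.

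Counted by comparison, the step from VCaP-T to VCaP-CT, which asks what differs after long growth at low testosterone, involved 9 of the 10 members: 6 were higher (BCL2, MCL1, BAK1, BCL2L11, BID and BIK) and 3 lower (BAX, BBC3 and PMAIP1). Over all genes 33.1% were higher and 32.2% lower. The median log2 fold change was 0.36 over the members and 0.03 over all genes tested. By role, 2 of 3 anti-apoptotic members, 1 of 2 effectors and 3 of 5 BH3-only members rose.

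From VCaP-CT to VCaP-CT-ER, where cells had regained growth under enzalutamide, 3 members rose (BCL2, MCL1 and PMAIP1, against 29.6% of all genes) and 2 fell (BAK1 and BID, against 31.2%). The median was 0.07 over the members and −0.02 over all genes. From VCaP-CT to VCaP-CT-BR, 3 rose (BCL2, MCL1 and PMAIP1, with 26.1% of all genes) and 5 fell (BAX, BAK1, BBC3, BID and BIK, with 27% of all genes), and the medians were −0.17 and −0.02. These comparisons share their VCaP-CT libraries, so the values are set side by side without a count of agreement. PMAIP1 had 1.70 and 1.03, MCL1 0.40 and 0.35, BCL2 0.31 and 0.70, BAK1 −0.67 and −0.20, and BID −0.66 and −0.24, in VCaP-CT-ER and VCaP-CT-BR.

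From VCaP-CT-BR on to VCaP-CT-BR-ER, 4 members rose (BCL2L11, BBC3, PMAIP1 and BIK, with 21.2% of all genes) and 2 fell (BCL2L1 and BAK1, with 21.7%), with medians of 0.10 over the members and 0.00 over all genes. All 4 that rose are BH3-only members. Directly compared, VCaP-CT-BR-ER had higher BCL2L11 and BID than VCaP-CT-ER (23.3% of all genes were higher) and lower BCL2L1 and PMAIP1 (22.7% were lower). The excess of PMAIP1 in VCaP-CT-ER (log2 fold change −0.22 ± 0.08 as VCaP-CT-BR-ER minus VCaP-CT-ER, edgeR adjusted p = 0.0264) did not pass without VCaP-CT-ER replicate 3 (0.115), without VCaP-CT-BR-ER replicate 2 (0.1) or with no filter (0.0605). BIK missed the threshold there (0.23 ± 0.09, edgeR adjusted p = 0.05 after rounding), as did BCL2 (0.29 ± 0.12, edgeR adjusted p = 0.0552).

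VCaP-CT-ER regrew under enzalutamide and VCaP-CT-BR under bicalutamide, though the label of VCaP-CT-BR also speaks of enzalutamide, and 8 members differed between them. In VCaP-CT-ER, 5 were higher (BCL2L1, BCL2L11, BBC3, PMAIP1 and BIK, with 27.1% of all genes) and 3 lower (BCL2, BAK1 and BID, with 28.8% of all genes). BBC3 differed by 0.78 ± 0.13 on the log2 scale (edgeR adjusted p = 1.88e-05) and PMAIP1 by 0.67 ± 0.08 (edgeR adjusted p = 5.36e-07). BAK1 differed by −0.47 ± 0.06 (edgeR adjusted p = 2.09e-06) and BID by −0.42 ± 0.07 (edgeR adjusted p = 2.56e-05). The difference of BCL2 (−0.39 ± 0.12, edgeR adjusted p = 0.00937) did not pass without VCaP-CT-ER replicate 1 (0.0673) or VCaP-CT-BR replicate 3 (0.0574). MCL1 differed by 0.05 ± 0.05 (edgeR adjusted p = 0.392). Doses of the antagonists and times under them are not stated alike for both sublines, so the values are not a comparison of the drugs.

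Growth under enzalutamide was reached from 2 starting points, VCaP-CT and VCaP-CT-BR, and the difference between the steps was tested as a contrast of its own. The label of VCaP-CT-BR also speaks of enzalutamide, so whether this start was free of it is not settled. For 8 of 10 members it passed, where 49.7% of all genes did. The largest was that of PMAIP1, which rose 3.26-fold in the step from VCaP-CT and 1.36-fold in the step from VCaP-CT-BR (difference of log2 fold changes 1.26 ± 0.12, edgeR adjusted p = 4.49e-08). VCaP-CT-BR already had more PMAIP1 than VCaP-CT before this step. BBC3 had −0.16 in the step from VCaP-CT and 0.77 in the other (difference −0.93 ± 0.17, edgeR adjusted p = 0.000143). Before this step BBC3 was lower in VCaP-CT-BR than in VCaP-CT (log2 fold change −0.94). Its levels in VCaP-CT-BR-ER and VCaP-CT-ER did not differ by the test (−0.01, edgeR adjusted p = 0.94). BID fell in the step from VCaP-CT and did not pass in the other (difference −0.70 ± 0.10, edgeR adjusted p = 5.42e-06). BIK (−0.49 ± 0.14, edgeR adjusted p = 0.00554) and BCL2L11 (−0.31 ± 0.09, edgeR adjusted p = 0.00505) had larger values in the step from VCaP-CT-BR. BAK1 fell more in the step from VCaP-CT (−0.34 ± 0.09, edgeR adjusted p = 0.00351). MCL1 (0.29 ± 0.07, edgeR adjusted p = 0.00187) and BCL2L1 (0.25 ± 0.07, edgeR adjusted p = 0.00466) had larger values in the step from VCaP-CT. For BCL2 and BAX the differences did not pass (0.40 ± 0.18 and −0.25 ± 0.11, edgeR adjusted p = 0.0662 and 0.0621).

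**Figure D3:**
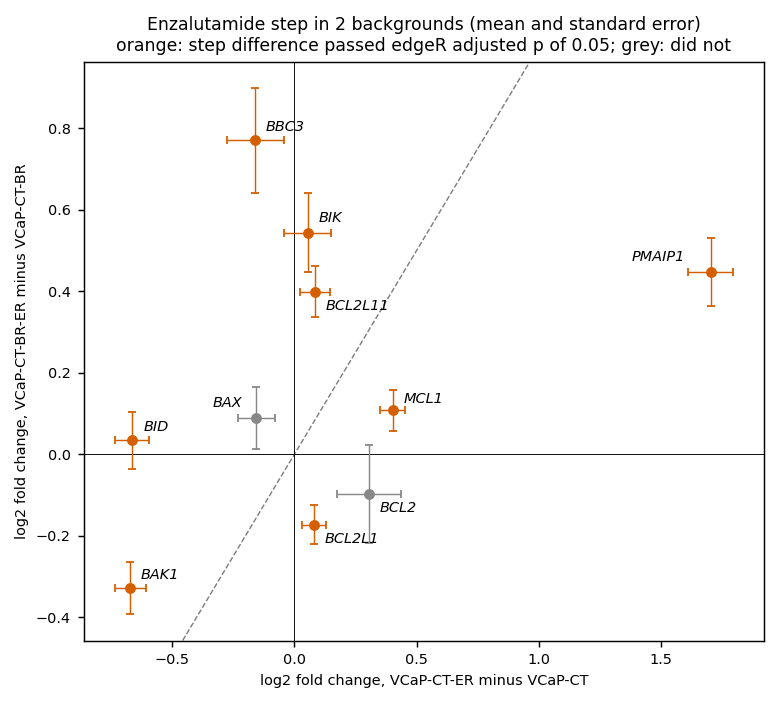
The log2 fold change of each member in the step from VCaP-CT to VCaP-CT-ER (horizontal axis) and from VCaP-CT-BR on to VCaP-CT-BR-ER (vertical axis), with standard errors from edgeR and a dashed line where the steps would be equal. PMAIP1 lies far to the right at 1.70 and 0.45, and BBC3 near the top at −0.16 and 0.77.

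Against VCaP-T, from which all the others descend, 9 members differed in VCaP-CT-ER, 8 for VCaP-CT-BR and all 10 for VCaP-CT-BR-ER, where 69%, 71.2% and 70.2% of all genes did. BCL2 was 3.14-fold, 4.11-fold and 3.85-fold higher in these sublines, and MCL1 1.63-fold, 1.57-fold and 1.69-fold higher. BBC3 was 3.00-fold, 5.17-fold and 3.03-fold lower. All of these passed the edgeR test, and they share the 3 VCaP-T libraries.

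When the sublines were ordered by the mean TPM of a member, 21 of the 40 pairs of neighbours in these orders differed by the edgeR test. No share of all genes is given beside this count, so the count is not read as a result about the members. MCL1 ran from VCaP-T through VCaP-CT, and the 3 resistant sublines at the top could not be ordered. BCL2L1 had only the lowest place set, that of VCaP-CT-BR-ER, and BAX only the highest, that of VCaP-T. PMAIP1 ran from VCaP-CT through VCaP-CT-BR and VCaP-T, which did not differ, to VCaP-CT-BR-ER and VCaP-CT-ER. BBC3 had VCaP-CT-BR lowest and VCaP-T highest, with the other sublines in between indistinct.

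Summed by role, the anti-apoptotic members came to 167 ± 5.73 TPM in VCaP-T, 178 ± 8.07 for VCaP-CT, 227 ± 3.81 for VCaP-CT-ER, 208 ± 5.21 for VCaP-CT-BR and 210.5 ± 4.86 for VCaP-CT-BR-ER (SD, n = 3). The effectors came to 64.8 ± 4.35, 80.6 ± 5.24, 62.1 ± 3.70, 69.4 ± 2.07 and 62.1 ± 3.80 TPM in the same order. The BH3-only members came to 67.9 ± 2.16, 66.9 ± 4.46, 72.5 ± 4.05, 60.9 ± 3.07 and 79.6 ± 3.08 TPM. The BH3-only sums of VCaP-T and VCaP-CT overlapped although all 5 of these members changed between them: the fall of BBC3 and PMAIP1 stood beside the rise of BID, BIK and BCL2L11. MCL1 and BCL2L1 made up nearly the whole anti-apoptotic sum in every subline. The sums are transcript levels and not protein.

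**Figure D4:**
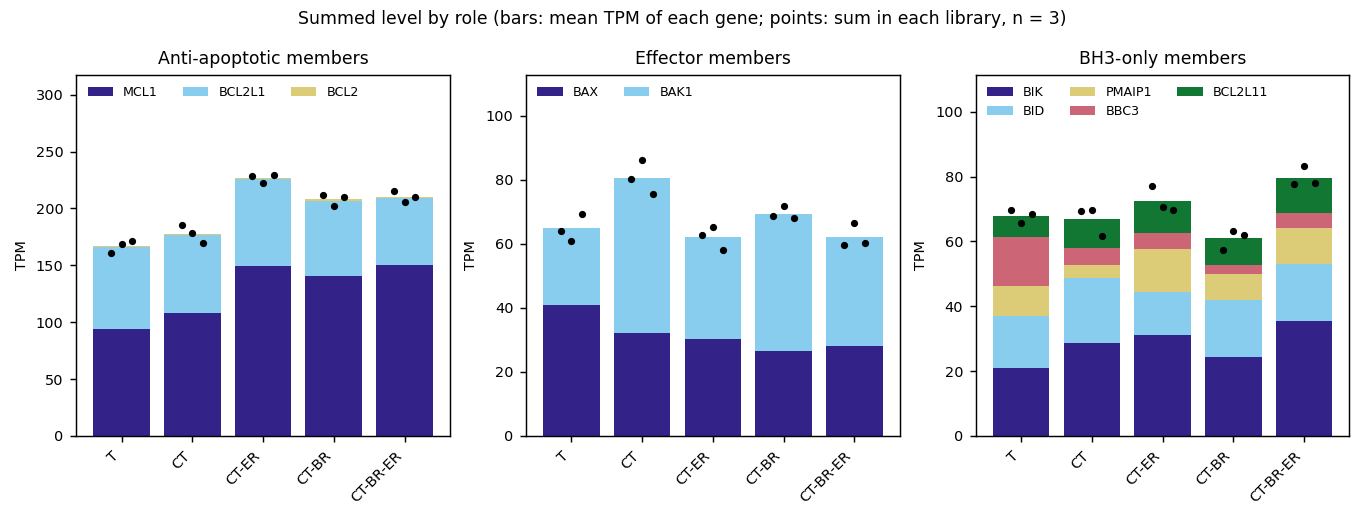
Sum of the TPM of the anti-apoptotic, effector and BH3-only members in the 5 VCaP sublines, with stacked bars for the mean of each gene and points for the sum in each of 3 libraries. The anti-apoptotic sum is highest in VCaP-CT-ER at 227 TPM, the effector sum for VCaP-CT at 80.6 TPM, and the BH3-only sum for VCaP-CT-BR-ER at 79.6 TPM. Family genes outside the members, among them BAD, BOK and BCL2L2, are not in these sums.

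Other genes of the family were examined as a list of 13, of which 10 passed the filter. BCL2A1, BCL2L10 and BNIP3L had at most 2 fragments in any library and were not tested. From VCaP-T to VCaP-CT, 3 of the 10 rose and 4 fell, and from VCaP-CT to VCaP-CT-ER 1 rose and 6 fell. BCL2L2, which encodes the anti-apoptotic BCL-W, stood at 32.5 ± 1.67 TPM in VCaP-T, 24.2 ± 1.56 for VCaP-CT and 41.9 ± 0.455 for VCaP-CT-ER (SD, n = 3), and was the gene that rose in that step (log2 fold change 0.72). Part of its exons, 24.33% of the bases, is shared with other genes. The BH3-only gene HRK had 28 to 39 fragments in VCaP-CT and 6 to 8 for VCaP-CT-ER, and fell by 2.63 on the log2 scale. BCL2L14 fell from 3.39 ± 0.331 TPM in VCaP-T to 0.385 ± 0.0657 TPM for VCaP-CT and to 0.105 ± 0.0275 TPM for VCaP-CT-ER. BOK, an effector-like relative, rose by 0.63 into VCaP-CT and fell by 0.89 into VCaP-CT-ER, and BAD, a BH3-only gene, had 0.44 and −0.97 in the same steps. The BAD libraries of VCaP-T (111 to 161 TPM) and VCaP-CT (141 to 228 TPM) overlapped, and 23.65% of its exonic bases are shared with GPR137. BNIP3, a mitophagy receptor, fell by 0.96 into VCaP-CT. BMF had −0.25, BCL2L13 −0.14 and BCL2L12 −0.18 in the step to VCaP-CT-ER, of which BMF and BCL2L13 passed, and BCL2L15 had values between −0.33 and 0.39 in the 6 comparisons.

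The integrated stress response, in which ATF4 and CHOP (from DDIT3) switch on genes that include PMAIP1 and BBC3, was followed with 10 genes. All 10 fell from VCaP-T to VCaP-CT, with a median log2 fold change of −2.87 beside 0.03 over all genes. DDIT3 went from 350 ± 17.1 to 39.3 ± 1.10 TPM (SD, n = 3), and ATF3, CHAC1 and DDIT4 had log2 fold changes of −4.18, −3.98 and −3.91. ATF4 itself had −0.76. Of the exonic bases of DDIT3 39.63%, and of DDIT4 41.16%, are shared with other genes, so their levels can be understated. In the step to VCaP-CT-ER, 6 rose and 1 fell (median 0.37), led by VLDLR, ATF3 and DDIT3 with 3.25, 1.53 and 1.03. In VCaP-CT-BR, 1 rose and 8 fell against VCaP-CT (median −0.38). From VCaP-CT-BR on to VCaP-CT-BR-ER, 8 rose and 2 did not pass (median 0.63), led by VLDLR, ATF3 and DDIT4, of which VLDLR had 1.82 and DDIT4 1.48. PMAIP1 and BBC3 fell in the step into VCaP-CT, in which all 10 of these genes fell, and rose in the step from VCaP-CT-BR, in which 8 rose. In the step to VCaP-CT-ER PMAIP1 rose and BBC3 did not pass (−0.16). In the step to VCaP-CT-BR, in which 8 of the list fell, BBC3 fell and PMAIP1 rose by 1.03 on the log2 scale. Whether the list and the members are linked was not tested.

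Of 7 transcription factors known to act on members, 3 rose and 2 fell into VCaP-CT (median log2 fold change 0.03, as over all genes), where FOXO1 and STAT3 fell by 1.40 and 0.71 and FOXO3, an activator of BCL2L11 and BBC3, rose by 0.68. Into VCaP-CT-ER 3 rose and 2 fell, among them RELA, which fell by 0.71. Into VCaP-CT-BR, RELA fell by 0.31 and TP73 by 0.58.

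The death receptor pathway, which feeds into BID, had 2 of 11 genes higher and 4 lower in VCaP-CT, with VCaP-T as the reference. TNFRSF1A, the receptor of TNF, had 459 to 533 fragments in VCaP-T, 2 to 6 for VCaP-CT and 56 to 61 for VCaP-CT-ER. The TRAIL receptors TNFRSF10A and TNFRSF10B fell by 1.91 and 1.75 on the log2 scale into VCaP-CT. In the step to VCaP-CT-ER, 5 rose and 2 fell. TNFSF10, which encodes TRAIL, dropped there from 29.5 ± 1.42 to 1.16 ± 0.0478 TPM and FAS from 27.5 ± 0.749 to 7.77 ± 0.293 TPM (SD, n = 3), while CFLAR, the inhibitor of caspase-8, rose by 1.19 on the log2 scale. BID fell in the same step.

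Downstream of the mitochondria, 14 genes of the apoptosome, the caspases and their inhibitors gave 2 higher and 6 lower in VCaP-CT against VCaP-T (median −0.12), 6 and 4 for VCaP-CT-ER against VCaP-CT (median 0.01), and 7 and 4 for VCaP-CT-BR against VCaP-CT (median 0.07). CYCS and DIABLO, released by the effectors, had −0.75 and −0.69 into VCaP-CT. DIABLO shares 30.43% of its exonic bases with other genes and had only 80 to 85 fragments per library in VCaP-CT. BIRC3 had 1.04 there and −2.38 into VCaP-CT-ER, and BIRC5 (survivin) 0.65 and 0.74 into VCaP-CT-ER and VCaP-CT-BR. Of 6 genes that control the turnover of the MCL1 protein, 4 rose and 1 fell into VCaP-CT, 4 rose into VCaP-CT-ER, and 5 rose into VCaP-CT-BR. Among them USP9X, a deubiquitinase that stabilizes MCL1, had 0.38 and 0.53 in the latter steps, MARCHF5, a ligase that targets MCL1, 0.34 and 0.37, and FBXW7, another such ligase, 0.08 (not passed) and 0.45.

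**Figure D5:**
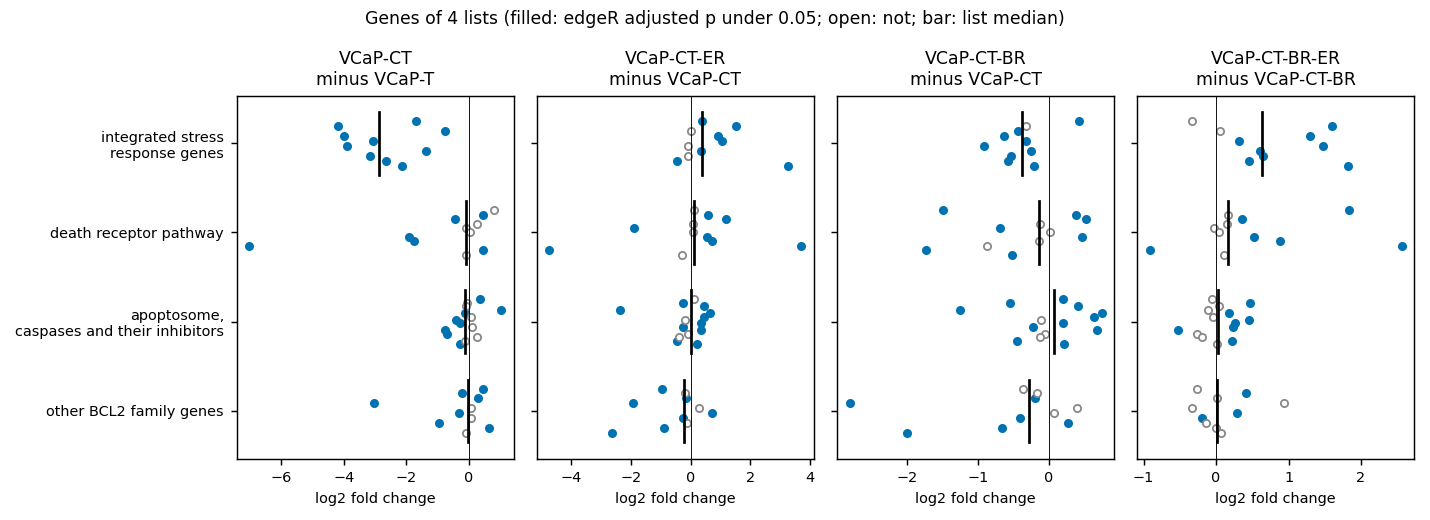
The edgeR log2 fold changes (horizontal axes) of genes in 4 lists around the members in 4 comparisons, filled for an adjusted p under 0.05, with a bar at the list median. The integrated stress response genes lie wholly to the left in VCaP-CT minus VCaP-T, with a median of −2.87, and mostly to the right for VCaP-CT-BR-ER minus VCaP-CT-BR, with a median of 0.63.

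Of 8 target genes of the androgen receptor, 7 fell in VCaP-CT against VCaP-T (median −1.31). KLK3 stood at 2027 ± 35.8 TPM in VCaP-T, 17.7 ± 0.943 for VCaP-CT, 292 ± 12.0 for VCaP-CT-ER, 7.69 ± 0.236 for VCaP-CT-BR and 21.7 ± 0.844 for VCaP-CT-BR-ER (SD, n = 3). Into VCaP-CT-ER 5 of the 8 rose and 2 fell, and into VCaP-CT-BR 1 rose and 5 fell.

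Across the 15 libraries, which fall into 5 sublines so that a coefficient reflects mainly 5 levels, the members most alike in log2 CPM were BCL2 and MCL1 (Pearson r = 0.908), BAX and BBC3 (0.906) and BCL2L11 and BIK (0.885). The most opposed were BCL2 and BBC3 (−0.933). Outside the family, among 13005 genes, the gene most like each member was PGAP1 for BCL2 (0.986), OVOL1 for BCL2L1 (0.917), BMPR1A for MCL1 (0.991), TBC1D2 for BAX (0.966), PIAS3 for BAK1 (0.983), RPL7P16 for BCL2L11 (0.979), ITGB4 for BBC3 (0.993), SLC18B1 for PMAIP1 (0.989), PDE4B for BID (0.951) and EMD for BIK (0.963). RPL7P16 is a pseudogene, and its reads are hard to tell from those of its parent gene. These coefficients are descriptions over libraries that share derivation and scaling.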

How the data were processed

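RNA of 5 VCaP sublines was sequenced by the authors on an Illumina instrument, 3 biological replicates per subline. Per the file headers and labels, the authors aligned reads to GRCh38 with STAR 2.5.4b and counted fragments per gene over exons with featureCounts 1.6.2 on GENCODE release 28, in paired mode and without regard to strand. The deposited values are raw counts, not normalized. Reads that fit several overlapping genes or several places were not assigned by these settings, which lowers counts of genes with overlapping neighbours or near-identical copies.

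Symbols were matched by identifier for 57754 of 58381 genes (98.9%). TPM were computed from the deposited counts and the deposited exonic lengths. Genes were compared between sublines by edgeR 4.0.16 under R 4.3.3 (filterByExpr with a minimum count of 10, TMM, quasi-likelihood F tests, two-sided, a term per subline over all 15 libraries, Benjamini-Hochberg adjustment over 19621 genes, threshold 0.05), and the procedure was tested on simulated data. Library totals lay between 33665716 and 46935279. Replicates differed by more than sampling noise (mean chi-square per gene at least 3.25).

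The members, the 7 lists around them (other family genes, apoptosome and caspases, death receptors, integrated stress response, transcription factors, MCL1 turnover, androgen receptor targets) and the tests were chosen with earlier results of these data known. A further list, 1 listed gene and 1 motif are not reported here. Named genes were all members, the other family genes, up to 3 genes per list, comparison and direction with the largest passing change (average log2 CPM 1 or more), and the gene most correlated with each member. The values of DDIT3 and ATF4 in the step to VCaP-CT and of MARCHF5 and FBXW7 beside USP9X fall outside this rule and were chosen after they were seen. The same holds for those of TNFRSF10A and CASP8 in the step to VCaP-CT-ER. Alternatives were DESeq2 1.42.0, 75th percentile scaling, other filters, only the compared sublines, a 1.5-fold minimum, leaving out single libraries, and the replicate number as a block. Figures were drawn with matplotlib 3.10.9.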

Additional observations from a re-analysis of the deposited data

Results flagged for a closer look

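The step into growth under enzalutamide was taken from VCaP-CT and, separately, from VCaP-CT-BR, and for 8 members the change differed between these starting points by the edgeR test of the difference itself. Whether VCaP-CT-BR was free of enzalutamide is not settled by its label. Given as the log2 fold change from VCaP-CT minus that from VCaP-CT-BR, so that a positive value means a log2 fold change that lay higher in the step from VCaP-CT and a negative value one that lay lower, whatever the size of either change, the differences were 1.26 for PMAIP1, −0.93 for BBC3, −0.70 for BID, −0.49 for BIK, −0.34 for BAK1, −0.31 for BCL2L11, 0.29 for MCL1 and 0.25 for BCL2L1. For 3 of them, PMAIP1, BBC3 and BID, the difference exceeded 1.5-fold. Of all genes, 49.7% differed in the same test. The starting levels differed too: VCaP-CT-BR minus VCaP-CT was 1.03 for PMAIP1, −0.94 for BBC3 and −0.24 for BID in log2.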

How the results depend on the processing

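Over the 7 contrasts of the 10 members, 68 of 70 results kept their direction and side of the threshold with DESeq2, 68 with the replicate block, 67 without a filter, 67 with at least 10 counts in every library, 66 with only the compared sublines and 64 with 75th percentile scaling, as did 439 of 480 with 1 library left out. A minimum change of 1.5-fold left 2 members higher in VCaP-CT than in VCaP-T, 1 higher in VCaP-CT-ER and 1 lower in VCaP-CT-BR than in VCaP-CT, 1 higher and 0 lower in VCaP-CT-BR-ER than in VCaP-CT-BR, 0 higher and 0 lower in VCaP-CT-BR-ER than in VCaP-CT-ER, 2 higher and 0 lower in VCaP-CT-ER than in VCaP-CT-BR, and 3 members with a step difference. Also past this minimum were BBC3 and PMAIP1, lower in VCaP-CT than in VCaP-T. Against VCaP-CT, so were BAK1 and BID, lower in VCaP-CT-ER, and BCL2 and PMAIP1, higher in VCaP-CT-BR. No share of all genes is given for this minimum, so its counts are not read as a result about the members. Against VCaP-CT-ER, the count of members higher in VCaP-CT-BR-ER was 1 with DESeq2, 75th percentile scaling or no filter (BCL2L11 lost) and 4 with only the compared sublines (BCL2 and BIK gained), and the count lower was 1 with no filter (PMAIP1 lost). With 1 library left out, 3 to 5 members were lower in VCaP-CT-BR than in VCaP-CT (3 without VCaP-CT replicate 1 or 2), 1 to 2 lower in VCaP-CT-BR-ER than in VCaP-CT-BR, and 1 to 2 higher and 1 to 2 lower in VCaP-CT-BR-ER than in VCaP-CT-ER. A pair of values near 0 turned sign: BCL2L1 in VCaP-CT minus VCaP-T, 0.008 in log2, was −0.015 with DESeq2, −0.017 with at least 10 counts in every library and −0.029 to 0.035 with 1 library left out, and BBC3 in VCaP-CT-BR-ER minus VCaP-CT-ER, −0.013, was −0.146 to 0.087 with 1 library left out. The causes were not tested. The labels do not say what replicates of the same number share. In none of the 6 pairs of sublines compared did all 3 same-numbered deviations correlate above 0.1. Over all 10 possible pairs the mean r was −0.009 for the same number, across 15255 genes, so the numbers were not taken as pairs. The mean for other numbers, 0.004, follows from centring on each subline and is no separate comparison. With the replicate number as a block, 4 members instead of 2 were higher in VCaP-CT-BR-ER than in VCaP-CT-ER (BAK1 and BIK gained), and no other call changed. Counting error is widest for BCL2, which had the fewest fragments of the members, 47 to 273 per library.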
